A study of Mus musculus with 4 samples.

Results

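The liver after 15 weeks of a high-fat high-sucrose diet was compared with the liver after 10 weeks of the same diet, across genes. The members were all genes measured on both arrays: a spot had to be marked by the scanner software as well above background at 10 and at 15 weeks, and where several probes read a gene, the brightest on average stood for it. This gave 17487 genes of 34743 genes and transcripts with a probe on the array, of which 13157 carried a symbol of the gene table. The mice were male C57BL/6 animals, 5 weeks old when the diet began, so they were 15 weeks old at 10 diet weeks and 20 weeks old at 15 diet weeks. The other arrays of the series are from 0 weeks of diet (age 5 weeks) and 5 weeks of diet (age 10 weeks). Every mouse past 0 weeks received the diet, no group on another diet at the same age was analysed here, and time on the diet and age cannot be told apart. Each time point was 1 array of total RNA from frozen liver, labelled with Cy3 alone. The series text gives 4 mice per time point; whether the RNA of several mice was pooled for an array is not given in the sources used here. No difference below therefore carries a p-value or a standard deviation between animals, and higher or lower describes these arrays.

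Fat storage in hepatocytes (steatosis) is commonly followed, in diet-fed mice, by the recruitment of macrophages from blood monocytes and by the activation of hepatic stellate cells, the vitamin A-storing pericytes of the sinusoid. Activated stellate cells become contractile myofibroblasts that secrete fibrillar collagen and the inhibitors that slow its breakdown. Bulk RNA holds the sum of all these cells, so more cells of a type and more RNA per cell cannot be told apart.

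A level below is the log2 processed signal of a probe minus the 75th percentile of its array, shifted so that the median probe measured together with the 10-week array is 0 apart. Levels of different genes come from different probes and were not compared with each other. Some printed levels at 0 or 5 weeks were not above background and show only that the signal was dim. Among genes measured at 10 and 15 weeks, these were Ccl7 and Bard1 at 0 and 5 weeks. The others were Cidea, Timp1 and Plk1 at 0 weeks and Cyp2b10 at 5 weeks. A difference is the level at 15 weeks minus that at 10 weeks, and a gene was counted as higher or lower at a difference of at least 2-fold (1 on the log2 scale). Of the measured genes, 1073 (6.14%) were higher at 15 weeks and 399 (2.28%) lower, together 8.42%, and 16015 lay within 2-fold. At least 4-fold differences numbered 173 higher and 38 lower. The 15-week array needed a shift of -0.24, the largest of the series. Without that shift 691 genes were higher and 712 lower, so the higher share of the called genes went from 72.9% to 49.3%. Scaling to the spiked-in E1A control RNA gave 1915 and 203, a share of 90.4%. The dynamic range differed as well: 48.3% of spots were well above background at 15 weeks against 44.5% to 44.9% on the others, and no spot was saturated. The scanner software's error model gave a median error of 0.21 for the difference of a called gene, and the spots of 253 probes printed 10 times gave 0.0987. Neither holds any spread between mice.

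The differences depended on brightness. Among genes without the alternating probe letters described further on, cut into 5 equal groups by mean level, the median difference was -0.05 in the dimmest group, 0.11, 0.09 and 0.02 in the next, and -0.11 in the brightest. In that brightest group only 0.934% of genes were higher and 1.02% lower. Alb and other abundant transcripts of hepatocytes sit there.

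**Figure D1:**
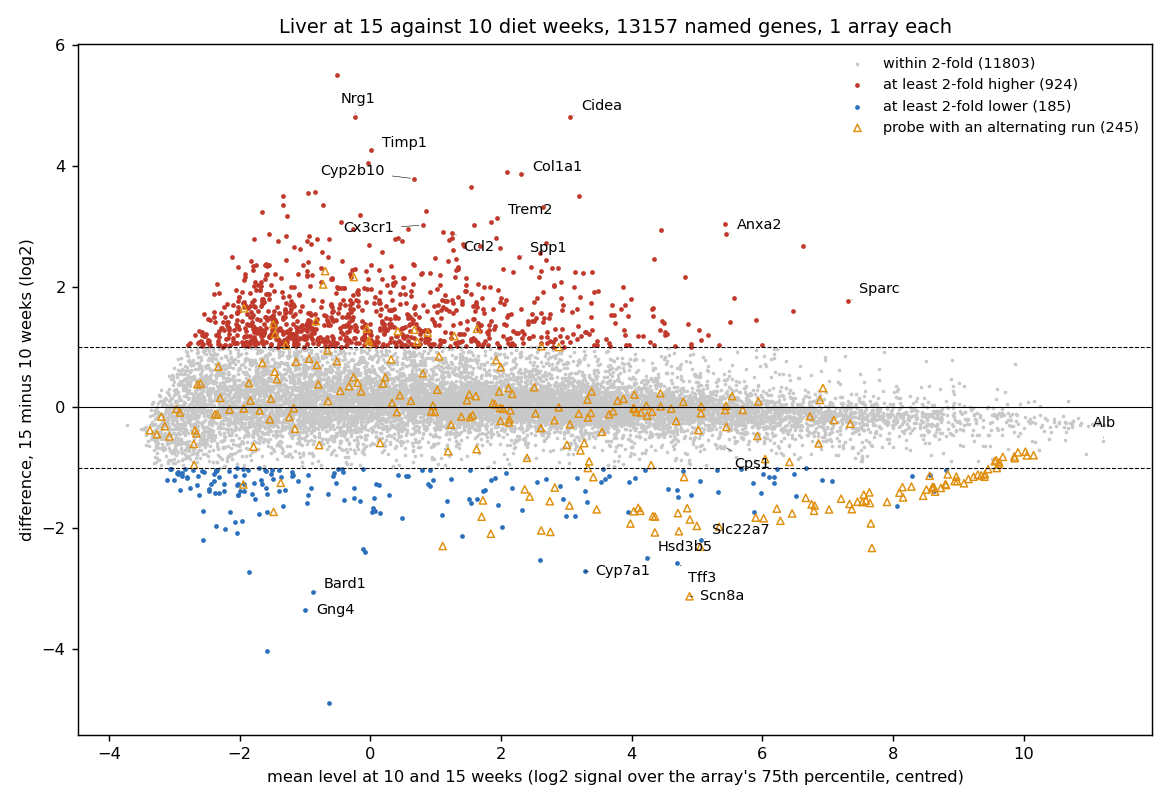
Difference between 15 and 10 diet weeks (log2, vertical axis) against the mean level of both arrays (log2, horizontal axis), 1 point per measured gene with a symbol of the gene table. Genes at least 2-fold higher or lower are in colour, and genes read at a probe with a run of alternating letters are open triangles. Of these 13157 genes, 942 lie at or above the upper threshold and 267 at or below the lower one.

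The tissue label held: all 17 hepatocyte markers were measured on both arrays. Alb, the albumin gene, was read at 11.59, 11.12, 11.50 and 10.94 at 0, 5, 10 and 15 weeks. All 17 markers were below the median gene at 15 weeks, with a median of -0.34 and none past 2-fold, but the median was 0.02 after quantile normalization and after normexp background correction. Their summed signal was 19530, 17967, 19373 and 15416 at 0, 5, 10 and 15 weeks. The part of the array's brightness range in this small deficit was not tested.

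Extracellular matrix genes were higher at 15 weeks in every group of the matrix, led by fibrillar collagens. Of 6 measured fibrillar collagen chains 4 were higher and none lower (median 2.50), of 37 glycoproteins and proteoglycans 26 and none (median 1.60), of 19 basement membrane genes 12 and none (median 1.27), and of 8 other collagens 5 and none (median 1.66), beside a median of -0.0039 over all measured genes. Col1a1, the alpha-1 chain of type I collagen, had levels of 1.78, 1.56, 0.38 and 4.23 at 0, 5, 10 and 15 weeks, and was 14.5-fold higher at 15 than at 10 weeks. Its partner chain Col1a2 had 4.20, 4.05, 2.98 and 5.92. Col3a1, the type III collagen laid down with type I, had 2.43, 2.26, 1.45 and 4.94, an 11.3-fold difference. In all 3 the 10-week array was the lowest of the series and the 15-week array the highest, so part of each difference lay below the level at the start of the diet: against 0 weeks, Col1a1 was 2.45, Col1a2 1.72 and Col3a1 2.51 higher at 15 weeks on the log2 scale. Col5a1, which nucleates the fibril, was 2.06 higher.

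Type VI collagen, the beaded microfibril around cells, was higher in all 3 measured chains named here: Col6a3 by 3.07 (8.37-fold), and Col6a1 and Col6a2 by 2.16 each. In the basement membrane the laminin chains Lamc3 and Lama2 were 2.17 and 1.78 higher, and the linker protein Nid1 was 1.75 higher. Col4a1, a chain of network-forming type IV collagen, was 2.03 higher, and Col4a2 was 1.66 higher. The Col4a1 probe was printed 10 times, and its spots had up to 9 neighbours of 48 that were bright on the same array. All 12 higher basement membrane genes had their lowest level of the series at 10 weeks and their highest at 15.

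Among glycoproteins Thbs1, the thrombospondin that releases latent TGF-beta, had levels of -2.09, -2.74, -3.09 and 0.41 at 0, 5, 10 and 15 weeks, a difference of 3.50. Ltbp2, a latent TGF-beta binding protein of microfibrils, was 2.95 higher, and Mfap2 and Mfap4, microfibril proteins, 2.75 and 2.60. The 2 measured probes of Mfap2 gave 1.36 and 2.75. Dpt (dermatopontin) was 2.49 higher. Fibronectin went the other way by a small amount: Fn1, which hepatocytes secrete into plasma, was at 8.81, 8.78, 8.87 and 8.46 and lay within 2-fold, with 8 bright neighbours. Thbs2 was above background only at 15 weeks, at least 5.76-fold higher.

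Of 27 measured matrix proteases 14 were higher and none lower (median 1.10), and 9 more were above background only at 15 weeks. Adam8, a metalloprotease of myeloid cells, was 2.62 higher. Mmp7, the matrilysin of epithelia, was 2.42 higher and Mmp2, the gelatinase of stellate cells, 2.30. Ctsk, the collagen-degrading cathepsin, was 2.42 higher and Adamts2, which trims procollagen, 2.22. Mmp13, the main mouse interstitial collagenase, and Mmp12, the macrophage elastase, were seen only at 15 weeks, at least 3.66-fold and at least 3.16-fold higher. Of 15 measured inhibitors 8 were higher. Timp1, an inhibitor of matrix metalloproteases, stood at -3.78, -2.55, -2.12 and 2.13 at 0, 5, 10 and 15 weeks. It was higher on each later array, and the last step of 19.1-fold followed those of Cidea and Nrg1 in size among ranked named genes. Timp2 was 1.43 higher, its measured probes ranging from 1.0 to 1.43. The single lower inhibitor, Serpinb8 (-1.75), was read at a probe with a run of alternating T and G letters.

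The enzymes that fold and crosslink collagen were divided: 7 of 19 were higher and 1 lower (median 0.40). Loxl1 and Loxl2, which crosslink elastin and collagen, were 2.57 and 1.86 higher. Fkbp10, a collagen chaperone, was 2.23 higher and Serpinh1, another, 1.77. Lox was above background on neither array. Plod2 (-4.90), a lysyl hydroxylase, was above the other arrays only at 10 weeks, where 9 of the neighbours of its spot were bright too.

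Markers of activated stellate cells and myofibroblasts were higher in 15 of 18 measured genes with none lower (median 1.89), and those of quiescent stellate cells in 7 of 18 with none lower (median 0.86). The summed signal of the activated list was 737 at 0 weeks, 648 at 5, 594 at 10 and 846 at 15 weeks. That list holds Fn1, a bright gene that hepatocytes express too, at levels of 8.81, 8.78, 8.87 and 8.46. The sum therefore does not follow stellate cells alone. Pdgfra and Pdgfrb, the receptors that drive stellate cell growth, were 1.79 and 1.87 higher, and the ligand Pdgfb 1.68. Cygb, the globin of quiescent stellate cells, was at 3.20, 3.75, 3.57 and 5.07, and Tcf21, a factor of the same cells, at -1.82, -1.27, -1.3 and 0.35. Both lists of stellate markers were thus higher at 15 weeks. Ngfr was 1.40 higher at a probe printed 10 times, whose spots had up to 13 bright neighbours.

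The contractile genes followed another path. Acta2, smooth muscle actin and the usual mark of a myofibroblast, was at 4.10, 2.97, -0.16 and 2.65 at 0, 5, 10 and 15 weeks. Tagln, which bundles actin, was at 4.84, 3.68, 2.46 and 4.37, and Myl9, the regulatory myosin light chain, at 4.92, 3.82, 1.98 and 3.52. These 3 were 2.81, 1.91 and 1.54 higher at 15 than at 10 weeks, yet at 15 weeks all remained below their 0-week level. Cnn1 (calponin) and Actg2 (enteric smooth muscle actin) were above background at 15 and not at 10 weeks, at least 12.7-fold and at least 11.9-fold higher, and their 0-week levels of 3.23 and 3.58 were higher still than 0.09 and -0.01 at 15 weeks. Of 9 measured smooth muscle markers 5 were higher, all 5 had their minimum at 10 weeks, and only 1 had its maximum at 15. The summed signal of that list was 149, 88.8, 68.4 and 88.0.

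Bile duct genes shared that low point. Of 15 measured bile duct markers 11 were higher at 15 weeks and none lower (median 1.94), 8 of the 11 had their lowest level at 10 weeks, and 6 had their highest at 15. Krt19, the keratin that marks cholangiocytes, was at 3.0, 0.68, -0.76 and 1.27 at 0, 5, 10 and 15 weeks, so its 15-week level was below that of 0 weeks. Prom1, a stem and duct cell antigen, went 1.95, 0.50, -1.17 and 1.19. Sox4, a factor of growing ducts, differed: it was at -0.17, 0.09, -0.18 and 2.59, flat before 15 weeks. Sox9 (1.18) and Epcam (1.94) were higher too. Cldn7 rests on its brighter probe (2.15), and the other measured probe gave -1.11. Mesothelial and portal fibroblast markers were higher in 5 of 9 (median 1.06), among them Cd34 (2.22) and Wt1 (1.79).

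**Figure D2:**
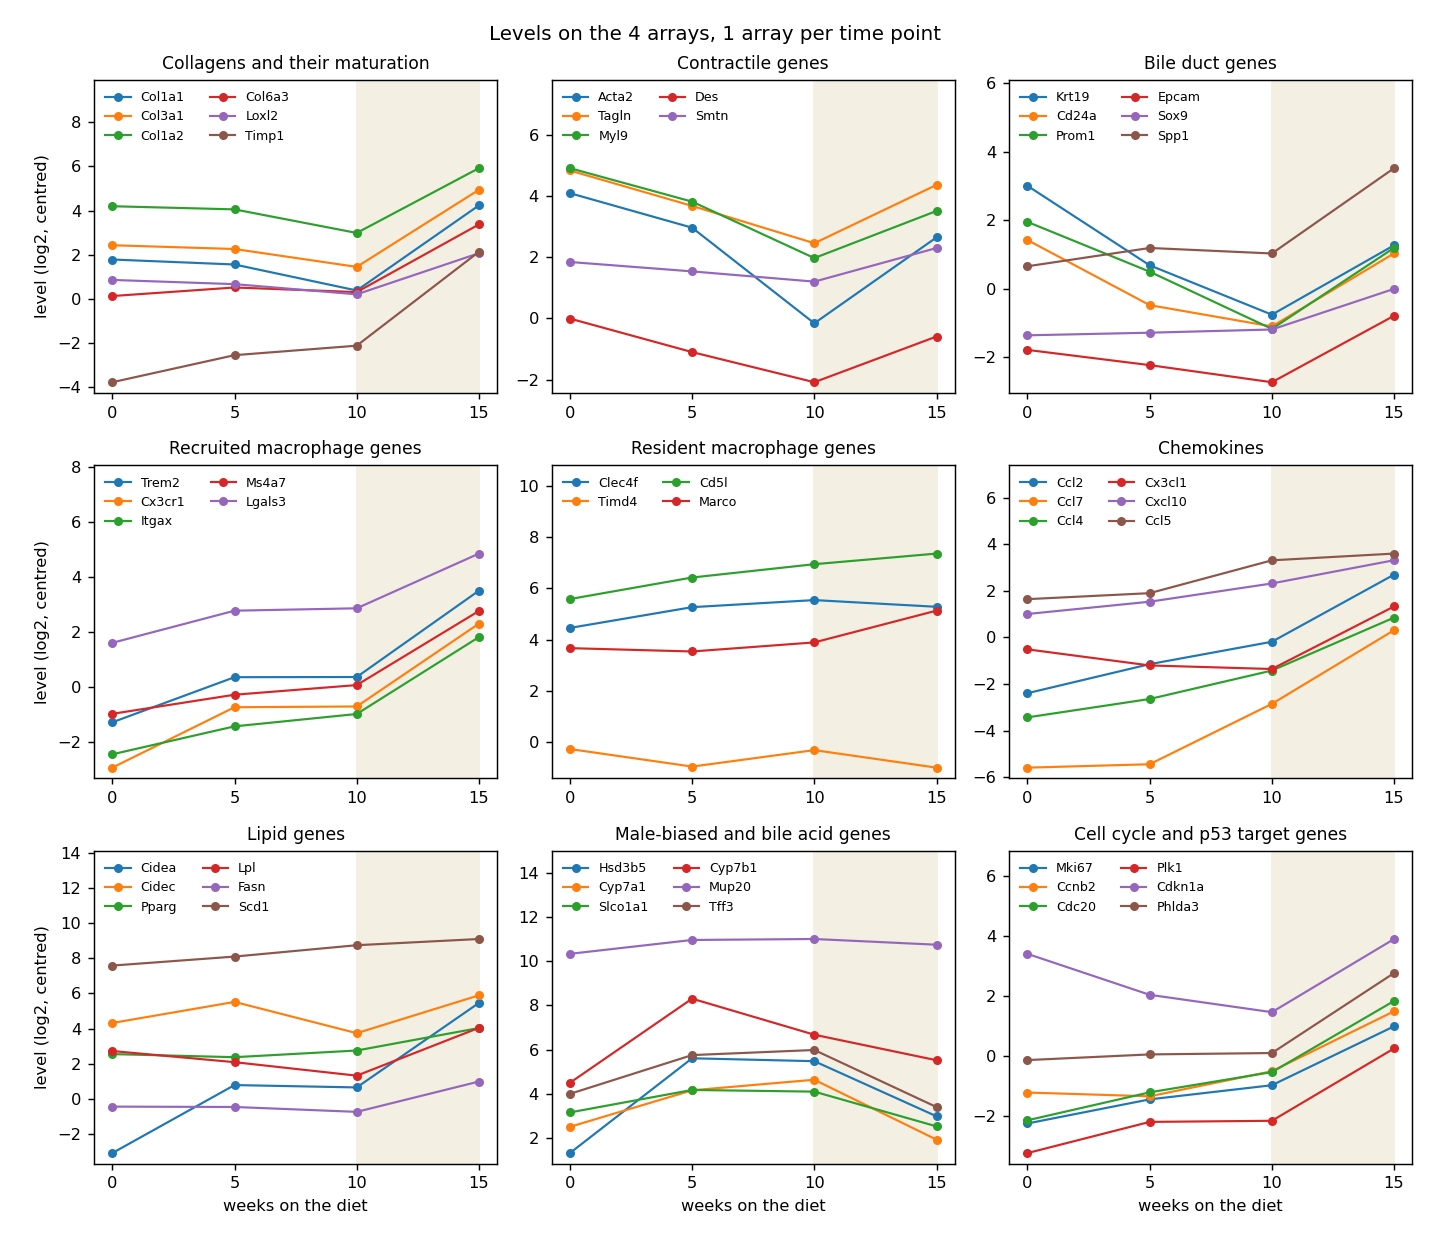
Levels (log2, vertical axis) of selected genes on each of the 4 arrays, in order of diet weeks (horizontal axis), 1 point per array. Many collagen, contractile and duct genes, such as Acta2 (4.10, 2.97, -0.16 and 2.65), have a low point at 10 weeks. Col6a3, Sox9 and Spp1 are instead lowest at 0 weeks, and Timp1 is higher on each later array.

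Over all measured genes, 1019 of the 1073 higher ones (95%) had their maximum of the 4 arrays at 15 weeks and 475 (44.3%) their minimum at 10 weeks. The minimum at 10 weeks was found for 13 of 15 higher activated stellate markers and 19 of 26 glycoproteins, and for 0 of 14 innate sensing genes, 0 of 9 cytokine genes, 1 of 7 chemokines and 1 of 19 cell cycle genes. For 101 of the 1073 genes the 10-week level was also at least 2-fold below that of 0 weeks, 7 of them activated stellate markers and 6 bile duct markers. A single array stands behind every such low point.

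The signals to stellate cells were less uniform than the matrix. In the TGF-beta, BMP and activin list 7 of 34 were higher and 1 lower (median 0.50). Tgfb1, the principal fibrogenic ligand, was at -0.72, -0.26, -0.26 and 0.60, a difference of 0.87 that lies within 2-fold. Tgfb2 was seen only at 15 weeks, at least 9.25-fold higher. Tgfb3 was 1.82 higher at a probe printed 10 times, whose spots had up to 15 bright neighbours. Targets of YAP and TEAD, which respond to cell stretch, were higher in 7 of 17 (median 0.85), among them Ccn2 (2.0) and Ajuba (1.53). In the Notch list 4 of 12 were higher, including the target genes Hey1 (2.15) and Heyl (2.27). Of 32 measured integrins and adhesion receptors 10 were higher, and the collagen receptor Ddr1 was seen only at 15 weeks, at least 7.27-fold higher.

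**Figure D3:**
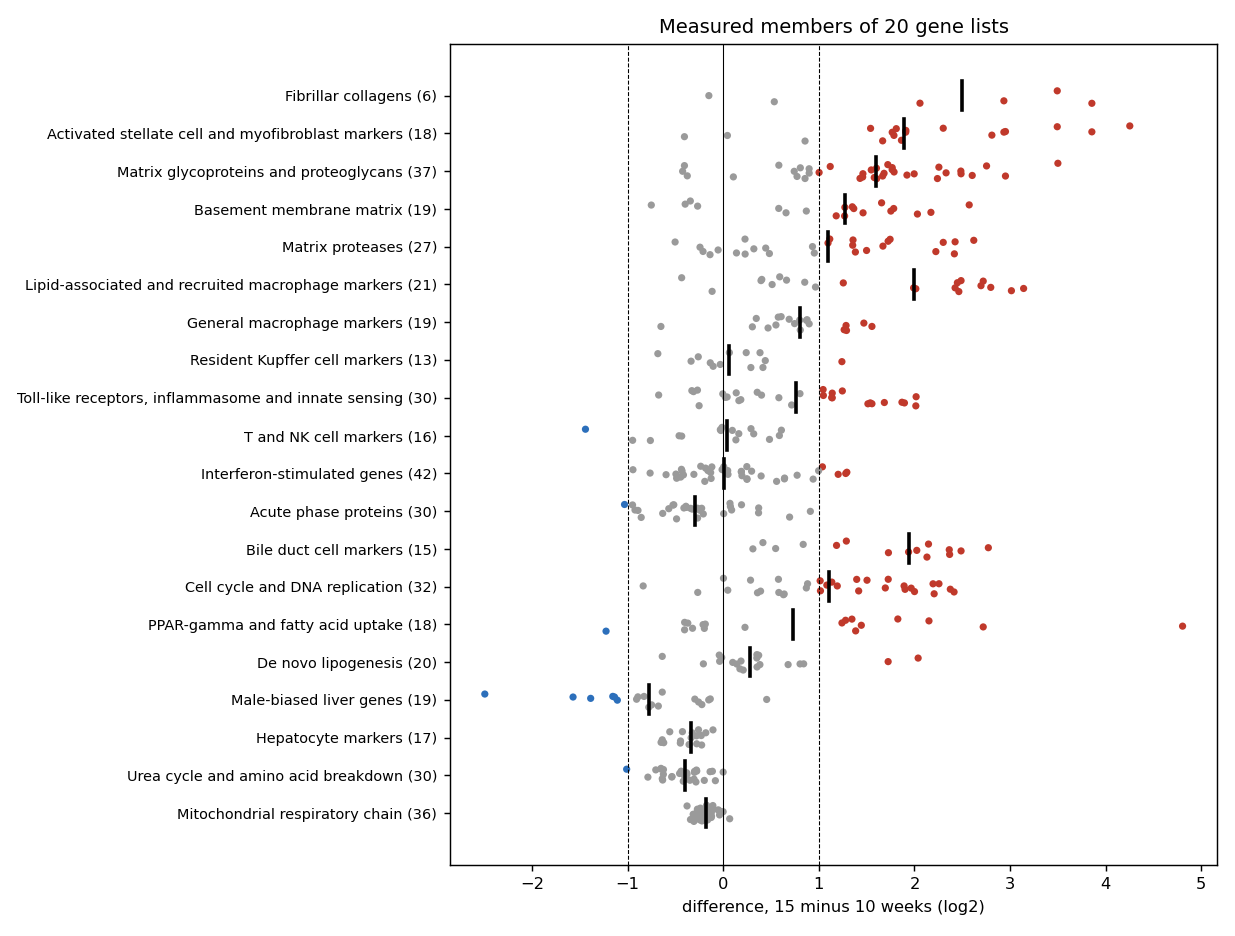
Gene lists by the differences of their measured members between 15 and 10 weeks (log2, horizontal axis), 1 point per gene with the median of each list marked. The fibrillar collagen, activated stellate, bile duct and lipid-associated macrophage lists have medians between 1.89 and 2.50, and the hepatocyte markers one of -0.34.

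Macrophage genes separated by state. Among markers of macrophages that load lipid or arrive from blood, 12 of 21 measured were higher and none lower (median 1.99), and 4 more were seen only at 15 weeks. Of 19 general macrophage markers 5 were higher (median 0.80), and of 13 markers of resident Kupffer cells 1 was (median 0.06). Among the 5 was Itgam (1.28), read at a probe with a run of 20 alternating A and C letters. The summed signal was higher on each later array for the general list (111, 202, 232 and 360) and for the Kupffer list (204, 315, 369 and 422). For the lipid-associated list it was 607, 850, 676 and 1003. That list holds Plin2, a bright gene of hepatocyte droplets, at levels of 8.66, 9.17, 8.80 and 9.21. Its sum therefore does not follow macrophages alone.

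Cx3cr1, the fractalkine receptor of monocyte-derived cells, was at -2.93, -0.73, -0.71 and 2.31 at 0, 5, 10 and 15 weeks, and its ligand Cx3cl1 at -0.52, -1.21, -1.36 and 1.33. Both differed little between 5 and 10 weeks and were highest at 15. At 5 weeks the receptor was above its 0-week level and the ligand below its own. Itgax (CD11c) was at -2.45, -1.43, -0.98 and 1.82. Trem2, the lipid receptor that gives these macrophages their name in many studies, was at -1.28, 0.36, 0.36 and 3.51, an equal level at 5 and 10 weeks, although its spot had 9 bright neighbours. Gpnmb, a lysosomal glycoprotein of the same cells, was above background only at 15 weeks and at least 30.6-fold higher. Spp1 (osteopontin), which ducts make as well, was at 0.65, 1.19, 1.03 and 3.52.

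Cd63 (2.45), Ms4a7 (2.70), Clec7a (2.01), Lgals3 (1.99) and Cd9 (1.26) were higher too, while Fabp5, a fatty acid chaperone of the same list, was at 3.48, 6.35, 4.71 and 4.27 and lay within 2-fold. Lpl, which releases fatty acids from lipoproteins, was 2.72 higher with its low point at 10 weeks. Adgre1, a surface receptor of most macrophages, was higher on each later array, at 0.80, 1.74, 2.16 and 2.71, and its last step of 0.55 lay within 2-fold. Cd68 was at 3.24 at 10 weeks and 4.53 at 15. Among Kupffer genes Clec4f (-0.26), Timd4 (-0.68) and Cd5l (0.41) were within 2-fold and only Marco, a scavenger receptor, was higher (1.24).

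The other leukocyte lists varied. No T or NK cell marker of 16 measured was higher and Gzmb was lower (-1.44), while Cd8b1, Klrb1c and Xcl1 were above background only at 15 weeks, the largest bound being at least 1.15-fold. The summed signal of that list was 48.5, 58.7, 61.0 and 47.0. Of monocyte and neutrophil markers 2 of 10 were higher, Chil3 (1.98) and Plac8 (1.10), with a median of 0.23 that was -0.01 without the shift of the array. Dendritic cell markers were higher in 3 of 7 (median 0.83), Cd209a (2.08), Ccr7 (1.44) and Fscn1 (1.07), and 3 more were seen only at 15 weeks. Among MHC class II genes 5 of 12 were higher (median 0.94), including H2-Aa (1.14) and Cd74 (1.03). Of 19 sinusoidal endothelial markers 1 was higher, the fatty acid carrier Cd36 (1.35).

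Of 21 measured chemokines 7 were higher and 1 lower (median 0.29). Ccl2, which calls monocytes through CCR2, was at -2.40, -1.15, -0.19 and 2.70 at 0, 5, 10 and 15 weeks. Ccl7, a ligand of the same receptor, was at -5.60, -5.45, -2.86 and 0.31, not above background at 0 and 5 weeks. Ccl4 was 2.27 higher and Cxcl14 2.26. Ccr2 itself appeared only at 15 weeks, at least 2.39-fold higher. The low member was Ccl12 (-1.01), just past the threshold. Ccl5, a T cell chemokine, was at 1.64, 1.90, 3.31 and 3.60, so its main step lay before 10 weeks. Cxcl10, an interferon target, was at 1.0, 1.53, 2.31 and 3.31, and its last difference of 0.997 fell just short of 2-fold.

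Few classical cytokines passed 2-fold. Il1b was at -0.45, 0.18, 0.83 and 0.78, a last difference of -0.05. Tnf was above background only at 15 weeks, at least 2.83-fold higher, with 9 bright neighbours at 10 weeks, and Il6 on neither array. In the list of cytokines and receptors 9 of 37 were higher, led by the death receptor Tnfrsf10b (2.86), with Il33 (1.21), an alarmin, and Osmr (1.32), the oncostatin M receptor. Tnfrsf9, its only lower member, was read at an alternating T and G probe. Of 30 innate sensing genes 14 were higher (median 0.76), among them Tlr1 (2.02), Clec4d (1.90), Clec4e (1.87), Casp4 (1.68) and the LPS co-receptor Cd14 (1.56). In the NF-kappaB list 4 of 24 were higher: Relb (1.75), the feedback inhibitor Tnfaip3 (1.73), Traf1 (1.54) and Nfkb2 (1.08). A further Relb probe gave -0.38. Interferon-stimulated genes lay at the median gene (0.01), with 4 of 42 higher, led by Oas2 (1.29) and Ifi27l2a (1.28).

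Few genes of plasma inflammation proteins passed 2-fold. None of 30 acute phase genes was higher and 1 was lower, with a median of -0.30 that became 0.03 under E1A scaling. Saa1 and Saa2, the acute phase amyloids, were at 8.83 and 8.07 at 10 weeks and 8.83 and 8.15 at 15 weeks. Their peak was at 5 weeks, 9.87 and 9.12. Lcn2 was 0.91 higher. Complement genes had a median of -0.30 (0.03 under E1A scaling), with 1 of 29 lower, C8b (-1.25), and 2 higher, both receptors of myeloid cells: Itgb2 (1.03) and C3ar1 (1.21), the latter read at a probe with 8 alternating A and C letters. C5ar1 was seen only at 15 weeks, at least 3.25-fold higher. Coagulation and fibrinolysis genes had a median of -0.32, which was 0.0035 under E1A scaling, with 3 of 27 higher and none lower. Among them were Plaur (1.97), the urokinase receptor, and Vwf (1.06), von Willebrand factor. A further 2 were seen only at 15 weeks, Plat with a bound of at least 5.03-fold and Plau with one of 1.24-fold.

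Promoter letters were counted because inflammatory genes were higher together. In the 200 bases before the start of RefSeq genes (assembly GRCm38.p6), the kappaB letters GGANTTTCC, searched on both strands, stood in 14 of 698 higher genes with a promoter sequence (2.01%), in 0 of 201 lower genes, in 1.13% of 10351 measured genes and in 0.874% of all promoter windows. The AP-1 letters TGANTCA stood in 7.74% of higher genes, 7.46% of lower genes, 4.87% of measured genes and 5.48% of all windows, a similar share among higher and lower genes. The pattern of one does not contain that of the other. No test was made, and a match is a string of letters, not a bound site. The stretches around the kappaB letters of the 4 higher genes that belong to the lists of this comparison follow, 5' to 3' on the strand of the gene, matched letters in capitals. Tnfaip3 and Ier3 are feedback genes of NF-kappaB signalling, Birc5 (survivin) acts in mitosis and Anxa1 (annexin A1) limits inflammation.
Tnfaip3, chr10:19015416-19015444, minus strand: tcacgtgactGGAATTTCCatcggaaatc
Ier3, chr17:35821564-35821592, plus strand: cttcctccttGGAATTTCCagccccttgc
Birc5, chr11:117849184-117849212, plus strand: gcgtggggcgGGACTTTCCcggctcgcct
Anxa1, chr19:20390849-20390871, minus strand: agggGGAAAATCCatgattcctg
These genes were 1.73, 1.74, 1.73 and 1.82 higher at 15 weeks. Of 20 genes looked up for their part in the change 14 had a promoter in the table and 4 held a searched pattern. Trem2 carried AP-1 letters 9 bases before its start, in capitals at the end of this window.
Trem2, chr17:48346201-48346400, plus strand: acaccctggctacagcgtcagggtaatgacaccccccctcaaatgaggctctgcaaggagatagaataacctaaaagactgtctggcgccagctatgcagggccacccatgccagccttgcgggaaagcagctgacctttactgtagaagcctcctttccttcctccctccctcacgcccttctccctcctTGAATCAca
Myl9 carried a CArG box, the pattern of serum response factor at contractile genes, beginning 161 bases before its start; such boxes stood in 1.43% of higher, 1.99% of lower and 1.11% of measured genes.
Myl9, chr2:156775264-156775463, plus strand: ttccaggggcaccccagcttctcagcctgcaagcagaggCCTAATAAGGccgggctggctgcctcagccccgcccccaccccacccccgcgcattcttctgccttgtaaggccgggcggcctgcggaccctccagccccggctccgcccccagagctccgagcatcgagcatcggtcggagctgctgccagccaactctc

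Genes of fat storage were divided. Of 18 measured genes of PPAR-gamma action and fatty acid uptake 9 were higher and 1 lower (median 0.73). Cidea, a droplet fusion protein typical of brown fat, was at -3.08, 0.79, 0.65 and 5.46 at 0, 5, 10 and 15 weeks: a first step before 5 weeks, none from 5 to 10, and a further 27.9-fold by 15 weeks. Cidec, its relative of white fat and fatty liver, was at 4.32, 5.52, 3.74 and 5.89, with a low point at 10 weeks. Plin4, a droplet coat protein, was at 3.49 at 10 weeks and 5.13 at 15. Pparg itself was at 2.55, 2.37, 2.75 and 4.03 and Cd36 at 1.92, 1.55, 2.50 and 3.84. Plin2, the coat protein of hepatocyte droplets, was within 2-fold on every array (8.66, 9.17, 8.80 and 9.21), on a spot with 8 bright neighbours. Of 20 measured droplet genes 4 were higher (Cidea, Cidec, Plin4 and Hilpda), none was lower and 16 lay within 2-fold. The median of that list was 0.13, or -0.11 without the shift.

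Several of these genes also mark fat cells. Of 15 adipocyte markers 10 were measured, 5 of them higher and none lower (median 1.03). The higher ones were Cidea, Cidec, Plin4, Pparg and Fabp4 (1.83). The summed signal of the list was 120, 321, 665 and 721 at 0, 5, 10 and 15 weeks. Most of it came from members other than the 5 higher genes. At 10 weeks the log2 levels of those 5 were 0.65, 3.74, 3.49, 2.75 and 2.29. The sum therefore does not follow the higher genes. Above background on neither array were 5, among them Adipoq, Plin1, Lep and Retn, which are typical of fat cells. Whether the samples held fat cells was not tested.

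Fewer genes of fat synthesis and use passed 2-fold. Of 20 lipogenesis genes 2 were higher (median 0.28): Fasn, fatty acid synthase, was at -0.44, -0.46, -0.74 and 0.99, and the desaturase Scd2 was 2.04 higher. Scd1, the main liver desaturase, was at 7.58, 8.09, 8.74 and 9.09, and Srebf1 at -0.55, 0.05, 0.77 and 1.16, both with smaller last steps within 2-fold. Acaca was 0.84 higher. Mogat1, an enzyme of triglyceride synthesis induced in fatty liver, was 1.38 higher and Lpin1, the phosphatase of the same path, lower (-1.23). Fatty acid oxidation genes had a median of -0.17, which was 0.16 under E1A scaling and 0.13 after quantile normalization, with Cpt1a (-0.10) within 2-fold. Fgf21, a fasting and stress hormone, was 1.44 higher and Pdk4 1.37. None of 25 genes of cholesterol synthesis and uptake passed 2-fold.

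Lower genes were few in bile acid handling and more frequent in the male liver pattern. Cyp7a1, which commits cholesterol to bile acids, was at 2.51, 4.16, 4.64 and 1.93 at 0, 5, 10 and 15 weeks, 6.55-fold lower at 15 than at 10 weeks. Cyp7b1, of the alternative pathway and biased to males, was lower by a difference of -1.16. Of 28 genes of bile acid handling 3 were lower and 1 higher, with a median of -0.09. Among 19 male-biased genes 6 were lower and none higher, with a median of -0.78. Hsd3b5, a steroid-reducing enzyme of male liver, was at 1.32, 5.61, 5.48 and 2.98, and Mup21, a urinary pheromone carrier, at 7.89, 9.52, 9.32 and 7.93. Slco1a1, a transporter, was at 3.16, 4.18, 4.10 and 2.53. Of the 6 lower genes 5 had been at least 2-fold above 0 weeks on the 10-week array, and only 1, Slco1a1, had its minimum at 15 weeks, so 5 of the 6 stood at 15 weeks above their level in the mice of 5 weeks of age. Moxd1 of the same list was seen only at 10 weeks, at least 42.5-fold higher there, and stood at 4.13 at 5 weeks. Mup20 lay within 2-fold (-0.26). Mup probes can share near-identical genes, so Mup21 may not be read alone.

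The growth hormone axis, which keeps the male pattern, was lower in 5 of 19 and higher in 2 (median -0.38). Cish, a rapid target of STAT5, was at 1.10, 2.43, 2.27 and 0.76, and Igfals, the binding partner of IGF-1, at 3.63, 3.91, 4.19 and 3.0. Onecut1, a liver factor under growth hormone, was lower by a difference of -1.74 and Prlr by one of -1.33. All 5 had their minimum of the series at 15 weeks.

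Drug-metabolising cytochromes had 3 lower and 2 higher of 22 (median -0.50). Cyp2c54 (-1.46), Cyp2c37 (-1.45) and Por (-1.25), the electron donor of them all, were lower. Cyp2b10, the classical target of the receptor CAR, was at 6.59, -3.71, -1.22 and 2.56, so a 13.8-fold difference left it far below its level in mice at the start. Cyp3a11 was 0.92 higher. Gm3776, a predicted gene among glutathione transferase alpha genes, was 14.8-fold higher, Gstm3 1.54 or 3.29 by probe, and Cbr3, a carbonyl reductase, 2.02. Copies of the transferase family are similar, and which copy these probes read was not resolved. Of 36 NRF2 and oxidative stress genes 6 were higher.

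Further hepatocyte programmes are given by their counts. E1A scaling raises every difference alike, with the median over measured genes going from -0.0039 to 0.32. The urea cycle, pericentral and periportal medians below are therefore smaller in size under it as well. Urea cycle and amino acid genes had a median of -0.40 with 1 of 30 lower, and Cps1 was at 6.85, 6.45, 5.72 and 5.09. Pericentral genes were lower in 4 of 20 (median -0.34): Cyp2c37, Cyp2c50 (-1.22), Oat (-1.01) and Slc1a4 (-1.69), the last read at a probe with 12 alternating T and G letters. Periportal genes were lower in none of 20 (median -0.33). Gluconeogenic and insulin genes had a median of -0.13, which was 0.20 under E1A scaling. Mitochondrial respiratory chain genes spanned -0.38 to 0.07 with none of 36 past 2-fold and a median of -0.18, or 0.14 under E1A scaling. Chaperones of the endoplasmic reticulum had none of 27 past 2-fold and a median of -0.32, or 0.005 under E1A scaling. Liver transcription factors had a median of -0.20, or 0.13 under E1A scaling, and Hnf4a was at 8.15 and 7.72.

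Clock output genes differed between the arrays, and the hour of collection is not given in the sources used here. Dbp, driven directly by the clock, was at 4.33, 6.38, 6.74 and 5.01, Usp2 at 2.31, 1.91, 3.0 and 1.02, and Arntl, in antiphase to them, at 1.54, 0.20, -0.08 and 1.37. Of 17 clock genes 3 were lower and 1 higher. Cyp7a1 and Fkbp5 (-1.79), a glucocorticoid target, also have daily rhythms in mouse liver, and the part of collection time in them was not tested.

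Proliferation genes formed a broad group. Of 32 measured cell cycle genes 19 were higher and none lower (median 1.11), and 8 more were above background only at 15 weeks. Mki67 was at -2.25, -1.44, -0.97 and 0.99, Cdc20 at -2.14, -1.21, -0.54 and 1.84, and Plk1, the mitotic kinase, at -3.24, -2.20, -2.16 and 0.26. Ccnb2 (2.0) and Birc5 (1.73) were higher too. All 19 had their maximum at 15 weeks. Top2a appeared only at 15 weeks, with a bound of at least 2.0-fold.

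Growth arrest and stress genes were higher beside them. Cdkn1a (p21) was at 3.41, 2.04, 1.46 and 3.90, close at 15 weeks to its level at 0 weeks. Phlda3, a p53 target that restrains AKT, was at -0.13, 0.06, 0.10 and 2.77. The p53 list had 5 of 28 higher. In the integrated stress response 9 of 26 were higher: Atf3 was at -1.74, -1.08, 0.08 and 2.54, Gdf15, its secreted target, at 0.53, 2.61, 2.85 and 4.54, and Nupr1 was 2.80 and Asns 1.88 higher. Immediate early genes were higher in 10 of 28, led by Egr2 (3.36) and Klf6 (2.25). Hmox1 (0.83) was within 2-fold.

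Genes of fetal liver and liver tumours were higher in 14 of 23 and lower in 1 (median 1.31). H19, the imprinted non-coding RNA of fetal liver, was at -1.62, -2.20, -2.63 and 0.93, 11.8-fold higher at 15 than at 10 weeks. Spink1, a secreted trypsin inhibitor, was at 0.13, -1.05, 0.34 and 3.02, Ly6d, a surface antigen, at 4.41, 3.18, 3.91 and 6.95, and Golm1, a Golgi protein used as a serum marker, at 1.40, 0.27, -0.56 and 1.59. Afp was 0.69 higher at a probe printed 10 times, whose spots had up to 13 bright neighbours. The lower member was Tff3, an intestinal trefoil peptide, at 4.0, 5.75, 5.98 and 3.40. Calcium-binding S100 proteins and annexins were higher in 8 of 20 and lower in 1, S100a5 (-1.33). The higher ones included S100a11 (3.02), Anxa2 (2.87) and S100a4 (2.14).

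Nrg1, the neuregulin that binds ErbB3 and ErbB4, was at -2.98, -2.51, -2.64 and 2.17 at 0, 5, 10 and 15 weeks, flat and then 27.9-fold higher, level with Cidea as the largest differences among ranked named genes. Of its family Btc was 1.11 higher and Egfr lower (-1.04), the latter at a probe printed 10 times, whose spots had up to 8 bright neighbours. The list had a median of 0.16 that was -0.07 without the shift. Ranked genes outside the groups above were Osbpl3, an oxysterol-binding protein (12.6-fold), Tspan8, a tetraspanin (11.7-fold), Gprc5b, an orphan receptor (10.2-fold), Ntrk2, the receptor of brain-derived neurotrophic factor (9.47-fold), and Hr, a nuclear corepressor (9.10-fold). Gm10639 was 9.91-fold higher at its main probe and 0.97 on the log2 scale at another. Sdcbp2, a syndecan-binding protein, had the highest bound, at least 43.9-fold, among genes seen only at 15 weeks. In all, 1741 genes were seen only at 15 weeks, 429 of them with a bound of at least 2-fold, and 528 only at 10 weeks, 269 with such a bound.

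Among the furthest lower genes Slc22a7, an organic anion transporter, was at 4.27, 6.16, 6.16 and 3.97, Sult5a1, a sulfotransferase, at 1.49, 3.34, 2.46 and 0.33, and Pax2 at 2.23, 4.07, 3.86 and 1.33. Each was highest on the middle arrays. Gng4 and Bard1 were instead low on all arrays but that of 10 weeks: Gng4 at -2.14, -2.24, 0.67 and -2.68, and Bard1 at -3.91, -4.22, 0.65 and -2.41. At 10 weeks the spots of Gng4 and Bard1 had 6 and 7 bright neighbours, short of the 8 that mark a spot. The other measured probe of Bard1 gave -0.07. Npr1 was above background only at 10 weeks, at least 61.1-fold higher there. Of the 399 lower genes 328 (82.2%) had their minimum at 15 weeks and 167 (41.9%) their maximum at 10.

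Many lower calls were read at probes that hold a run of alternating letters. Of 356 measured genes read at a probe with at least 8 alternating T and G or A and C letters, 20 were higher and 115 lower, against 1053 and 284 of the 17131 other genes. For T and G the run length counted: of 82 genes with 8 to 9 letters 5 were higher and 6 lower (median 0.02), of 79 with 10 to 14 letters 41 were lower and none higher (median -1.15), and of 78 with 15 or more 64 were lower and none higher (median -1.35). That last group was bright, with median levels of 9.41, 9.40, 9.16 and 7.78 at 0, 5, 10 and 15 weeks. For A and C, 31 genes with 15 or more letters had the other sign, 10 higher and 2 lower with a median of 0.77. Where 23 lower genes with a T and G or A and C run had a further measured probe without one, the median difference was -1.53 at the run and 0.08 at the other probe, and 1 of 23 was lower there as well. The probe stretches of the ranked lower genes with such a run are shown because they account for 7 of the 15 furthest lower genes, run in capitals, 30 bases of each 60-base probe, 5' to 3', probe positions in mm9.
Scn8a, chr15:100875702-100875761, plus strand: acatgtaTGTGTGTGTGTGTGTGaagaatg
4933427D06Rik, chr6:89059972-89060031, plus strand: TGTGTGTGTGTGTGTGTagttaactatcct
Kcna4, chr2:107138207-107138266, plus strand: ttttgtgtaTGTGTGTGTGTGTctgtgtgt
Gm10914, chr16:4869242-4869301, minus strand: cctgtgttcaggagGTGTGTGTGTGTGTGT
Golga7b, chr19:42343901-42343960, plus strand: tatgcatgtgttTGTGTGTGTGTGTGggga
Dmtn, chr14:71001871-71001930, minus strand: aatatgtgtgGTGTGTGTGTGTGTtggggg
Fdxacb1, chr9:50580777-50580836, plus strand: ttttgtgttTGTGTGTGTGTGTaaaaaagt
These 7 genes were lower by differences of -3.13 to -2.06, and the measured probe of Fdxacb1 without a run gave 0.08. Why the runs differ was not tested. With all run probes left out 1054 genes were higher and 286 lower, and the higher share of called genes was 78.7%.

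**Figure D4:**
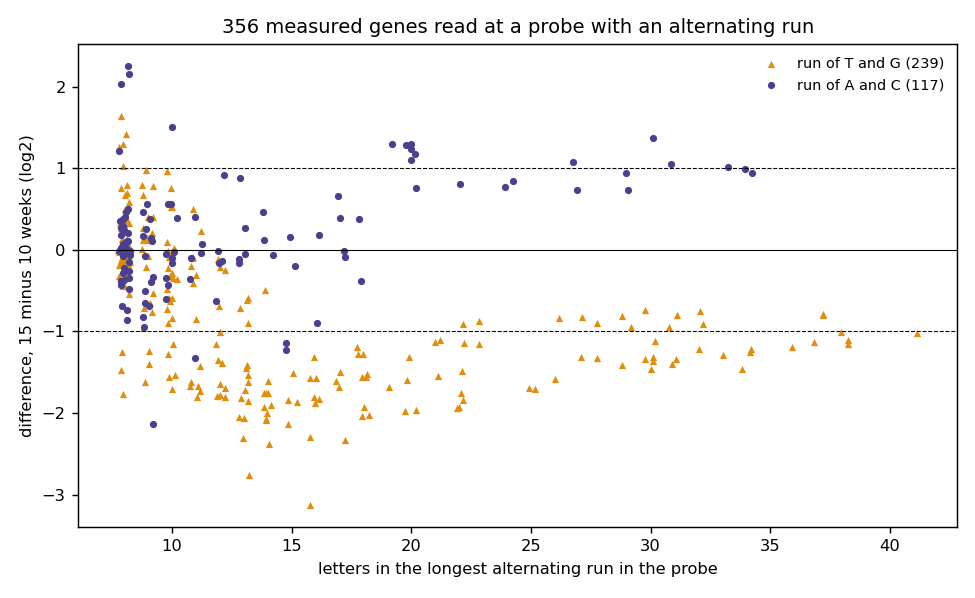
Differences between 15 and 10 weeks (log2, vertical axis) against the longest run of alternating letters in the probe (letters, horizontal axis), 1 point per gene, for runs of T and G and of A and C. Genes with 15 or more T and G letters have a median of -1.35, those with 15 or more A and C letters 0.77.

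The probe positions of leading genes, in mm9 as the array files give them, were X:20451802-20451861 for Timp1, 11:94813115-94813174 for Col1a1, 1:45405589-45405648 for Col3a1, 11:81850650-81850709 for Ccl2, 9:119957811-119957870 for Cx3cr1, 3:98422576-98422635 for Hsd3b5 and 4:6193456-6193515 for Cyp7a1. Whether they lie in coding or untranslated exons was not analysed here. Just past the 2-fold threshold were Abca5 (1.0001) and Pak4 (-1.0038), and just short of it Niban2 (0.9995) and Amigo2 (-0.998). Of 225 called genes with several measured probes free of runs, 33 had probes of opposite sign.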

How the data were processed

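Total RNA from the liver of mice at 0, 5, 10 and 15 diet weeks was hybridised, 1 array per time point, to a 1-colour Agilent array, and all 4 arrays lay on the same slide with the same scan time, per the file headers. The deposited scanner files hold spot intensity from Agilent Feature Extraction 10.7.3.1, background-subtracted per the file headers; the authors' deposited value table is that intensity divided by the median of each array and gave the same counts. From these, log2 intensity minus the 75th percentile was computed over non-control spots, spots marked as outliers were left out, spots of a probe were averaged, and differences were centred on the median measured probe (Python 3.11.15, pandas 2.3.3, numpy 2.4.6; limma 3.58.1 for normexp, offset 50). Feature Extraction marks per spot (scores of 0 or 1 for well above background, deposited) chose the measured probes. For genes above background on 1 array, the fold is a bound against the higher of the dimmest signal well above background and the gene's own signal. A neighbour is bright where its signal, scaled to the array median, exceeds the median of the other arrays of the series by more than 1 on the log2 scale. A spot counts as having bright neighbours where at least 8 of the 48 around it are bright. For a probe printed 10 times the highest count over its spots is given.

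Names came from the RefSeq gene table of GRCm38.p6: accessions named 27598 probes, current symbols 3493 and former symbols 393, while 24197 went by the name in the file. Named were the 15 furthest higher and lower named genes outside the lowest-expressed 25 percent and without bright neighbours, up to 6 members of each of 67 lists each way, key genes of the step, the 10 largest bounds each way and the genes at the threshold. Marker genes given as below background (Adipoq, Plin1, Lep, Retn), members named with a bound and the 4 genes with kappaB letters were chosen after their values were seen. The members and lists were chosen with earlier results of these data known. The calculation was tested on simulated data. The number of arrays limits the precision; the alternatives tried were other scalings, background correction, filters, thresholds and probe choices. Some genes that this rule names are not reported here.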

Additional observations from a re-analysis of the deposited data

How the results depend on the processing

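The counts of higher and lower genes (1073 and 399) were 691 and 712 without centring, 1915 and 203 with E1A scaling, 439 and 192 with normexp, 3851 and 1606 with no background filter, 693 and 244 without the 25 percent of lowest expression, 2233 and 1240 at 1.5-fold and 367 and 116 at 3-fold, and within 1.5 times the main counts with array-median, detected-probe and quantile scaling, probe means, bright spots or run probes left out and the deposited table. Sign changes of list medians were followed only where the main median was at least 0.0987 in size, the spread between spots. Smaller medians were left out and may change sign too. Among these are the resident Kupffer (0.06), T and NK cell (0.04) and interferon-stimulated (0.01) lists. The larger list medians changed sign as follows. Without centring: monocytes and neutrophils -0.006, sinusoidal endothelium -0.14, lipid droplets -0.11, neuregulin family -0.074. With E1A scaling: red cells 0.18, triglyceride and VLDL 0.21, fatty acid oxidation 0.16, gluconeogenesis 0.20, complement 0.028, coagulation 0.0035, acute phase 0.027, chaperones 0.005, liver transcription factors 0.13, respiratory chain 0.14. With quantile normalization: hepatocytes 0.018, triglyceride and VLDL 0.12, fatty acid oxidation 0.135, gluconeogenesis 0.081, respiratory chain 0.072. With normexp: hepatocytes 0.016, triglyceride and VLDL 0.068, fatty acid oxidation 0.088, gluconeogenesis 0.070, respiratory chain 0.043. With no background filter: red cells 0.13, triglyceride and VLDL 0.12, fatty acid oxidation 0.070, gluconeogenesis 0.11, liver transcription factors 0.084, respiratory chain 0.057. Without the 25 percent of lowest expression: sinusoidal endothelium -0.026, neuregulin family -0.296. The cause was not tested. Of 248 named genes called, 68 were within 2-fold in at least 1 of 12 alternatives, 49 of them with normexp and 28 without centring, and 1 changed sign: Fdxacb1, 0.078 without run probes. Leaving out a replicate was not possible with 1 array per time point, and no paired analysis was possible because each time point is a single array. Dim signals give bounds only, which fell from 429 to 352 genes higher by at least 2-fold and from 269 to 249 lower when the floor was a single spot.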

Other observations

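Several further gene groups are given by counts and a median on the log2 scale. Of 43 lysosome genes 3 were higher (median 0.28), of 21 iron and metallothionein genes none was higher and Mt2 was lower (-1.03; median 0.06, or -0.18 without the shift), and of 22 genes of PDGF, FGF, VEGF and hedgehog signalling 4 were higher and Hhip was lower (-1.07), with a median of 0.58. Of 8 measured B and plasma cell markers 1 was higher, Cd74, which other antigen-presenting cells also make, and the median was 0.33. Among red cell and platelet markers Pf4 was higher (1.37) and Gp9 lower (-2.08), the latter on a spot with 8 bright neighbours, and the median of 10 was -0.14, or 0.18 under E1A scaling. Female-biased genes had 1 higher, Cyp3a41b (1.09), and 2 lower of 12 measured (median 0.44). Of 21 genes of triglyceride synthesis and VLDL assembly 2 were higher and 1 lower, with a median of -0.12 that was 0.21 under E1A scaling.

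Some large values came from a single array. Cacna1f was above background only at 10 weeks, at least 59.7-fold higher there, on a spot with 7 bright neighbours. Trpc1, Prl2b1, Gm10814 and Lrp8 had bounds between 6.99 and 9.26, each also on a spot with 7 bright neighbours, and none of the 4 had a level above -3.89 on another array. Moxd1 (-5.56, 4.13, 1.54 and -4.50 at 0, 5, 10 and 15 weeks) was bright on both middle arrays instead, on a spot with at most 2 bright neighbours at 10 and 15 weeks. Npr1 (-5.55, -4.77, 2.06 and -4.56) was bright at 10 weeks alone, with 4 such neighbours.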
